A study of Mus musculus with 8 samples.

Results

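Accessible regions of 51 histone modifying enzyme genes were followed in spermatogonia through the response to retinoic acid (RA). The 51 genes were taken from a list of Polycomb subunits, histone methyltransferases, demethylases, deacetylases and acetyltransferases, and a peak belonged to a member when the deposited gene assignment of that peak held the member's symbol exactly. All 51 members had at least 1 assigned peak, among 21490 genes assigned to a peak in the series. They held 1164 of the 328733 peaks of the 8 libraries. Merging peaks that overlapped by at least 1 bp gave 249 member regions of 87144. The gene assignment reaches 10 kb beyond a gene, so 120 of the 249 regions were also assigned to another gene, and 69 lay nearer to the start of another gene than to that of the member.

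Histone modifying enzymes write or remove methyl, acetyl and ubiquitin groups on histone tails. Polycomb repressive complex 2 (PRC2) methylates lysine 27 of histone H3, and PRC1 ubiquitinates H2A and compacts chromatin. Other methyltransferases act on lysines 4, 9, 36 and 79 of H3, and demethylases, deacetylases and acetyltransferases set the balance of these marks. In spermatogonia, H3K27 and H3K9 methylation are known for their roles in the maintenance of undifferentiated cells and in the preparation for meiosis.

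ATAC-seq, in which a transposase cuts and tags open chromatin, had been performed on eGFP-positive germ cells of PIWIL2-eGFP mice. The transgene is driven by the *Piwil2* promoter, which is active in germ cells from before birth to early spermatids, so the sort does not by itself separate stages of spermatogonia. All groups shared the transgene, a strain background that the labels give as derived from C57BL/6 x 129s4/SvJae and the methods as a cross with SJL, and 7 daily feedings of 100 mg/kg WIN 18,446, an inhibitor of RA synthesis that holds spermatogonia before differentiation. The 0 h mice were collected at the end of this treatment, at about 9 days post partum, without RA. The 18, 48 and 120 h mice received 200 µg RA at 9 days post partum and were collected at those times, so age rises with time post-RA. There were 2 libraries for each timepoint, from 1 mouse each. The labels give 100000 sorted cells per library, and the methods a lower number.

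The peak height used here is the summit value, the tag coverage at the highest 32-nt bin of a peak after the authors had reduced every library to one number of tags. The 0 h libraries had 72215 and 69089 peaks, and the 6 later libraries had between 24643 and 39551. The lowest listed summit value was 24 or 25 in every library, so a missing peak means only that the signal was below the calling limit. Over the 15536 regions found in every library, median log2 heights were 7.81 and 8.08 at 0 h, followed by 6.51 and 6.86, 6.43 and 6.67, and finally 7.38 and 6.73 at 120 h. Where values follow each other without a time, their order is 0, 18, 48 and 120 h, replicate 1 first. Heights are given on the deposited scale and also relative to this median of the library. In bulk samples, a region open in fewer cells and a region less open in each cell cannot be told apart. All 9 genes of a germ cell list (among them *Ddx4* and *Dazl*) had peaks in all 8 libraries, and 8 of the 9 had a peak at their start in each. No library had a peak at the start of any of 5 Leydig cell genes. Summed summit values at the starts of 6 Sertoli cell genes were 531 to 698 at 0 h and 105 to 246 later, with *Fshr* at 0 throughout. For 4 macrophage genes they were 166 to 208 at 0 h and 0 later, with *Ptprc* and *Adgre1* at 0 throughout, and for the germ cell list 3550 to 4198 and 1266 to 2718. The sums were 406 to 461 at 0 h and 86 to 240 later for 3 peritubular cell genes, and 109 to 192 and 38 to 72 for 3 endothelial genes, with *Pecam1* and *Cdh5* at 0 throughout. The part of these other cells in the results below was not tested.

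The 200 bp around the highest summit are shown for 8 of the member regions that the values below turn on. They were read from the plus strand of GRCm38 (mm10), and none overlaps an annotated UTR. Capitals mark matches to the motifs searched in all regions, and windows without capitals held no match. A window 1671 bp upstream of the *Hdac4* start of the files (chr1:92149965-92150164, inside a GENCODE intron of the gene) and a window at the *Suz12* start (chr11:79992893-79993092) rose relative to the library median by 120 h. The capitals in the *Suz12* window are a CCAAT box.
Hdac4, 1671 bp upstream: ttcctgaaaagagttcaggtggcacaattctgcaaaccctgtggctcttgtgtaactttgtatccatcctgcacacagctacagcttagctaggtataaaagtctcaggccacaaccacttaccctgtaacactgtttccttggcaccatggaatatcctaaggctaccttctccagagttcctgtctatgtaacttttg
Suz12, gene start: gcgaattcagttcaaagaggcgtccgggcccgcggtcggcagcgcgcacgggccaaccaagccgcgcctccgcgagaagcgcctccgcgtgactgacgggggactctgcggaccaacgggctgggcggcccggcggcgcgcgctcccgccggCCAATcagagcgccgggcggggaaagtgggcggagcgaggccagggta
A window 9062 bp upstream of *Ep300* (chr15:81577053-81577252), with a CCAAT box in each orientation, fell at 18 h. A window in a *Kdm2b* intron (chr5:122939101-122939300) had the next largest decrease in relative height, which did not pass the test on that scale. Its decrease on the deposited scale passed.
Ep300, 9062 bp upstream: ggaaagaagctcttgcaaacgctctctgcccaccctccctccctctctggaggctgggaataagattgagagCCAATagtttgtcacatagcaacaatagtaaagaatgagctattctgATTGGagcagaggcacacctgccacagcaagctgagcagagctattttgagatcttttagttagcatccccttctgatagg
Kdm2b, intron: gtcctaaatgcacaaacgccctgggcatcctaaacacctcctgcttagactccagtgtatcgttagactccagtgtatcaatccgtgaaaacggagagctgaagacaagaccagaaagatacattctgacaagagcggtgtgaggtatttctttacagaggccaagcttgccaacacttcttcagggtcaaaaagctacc
Between 48 and 120 h, a window 6586 bp upstream of the *Cbx7* start of the files (chr15:79939133-79939332) rose relative to the library median. A window in a *Hdac5* intron (chr11:102214813-102215012) fell relative to it. The capitals in the *Cbx7* window are an NRF1 palindrome, which matches on both strands.
Cbx7, 6586 bp upstream: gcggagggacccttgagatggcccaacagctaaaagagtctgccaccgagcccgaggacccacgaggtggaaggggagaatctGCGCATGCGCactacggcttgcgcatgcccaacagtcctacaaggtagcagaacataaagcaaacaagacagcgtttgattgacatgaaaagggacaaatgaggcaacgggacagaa
Hdac5, intron: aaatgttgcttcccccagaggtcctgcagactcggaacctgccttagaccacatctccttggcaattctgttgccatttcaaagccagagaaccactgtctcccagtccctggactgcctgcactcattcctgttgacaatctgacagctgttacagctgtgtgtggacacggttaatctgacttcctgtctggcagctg
The last pair was called at 1 timepoint only, a *Kdm3a* intron at 0 h (chr6:71629501-71629700) and a *Kdm4a* intron at 120 h (chr4:118179005-118179204).
Kdm3a, intron: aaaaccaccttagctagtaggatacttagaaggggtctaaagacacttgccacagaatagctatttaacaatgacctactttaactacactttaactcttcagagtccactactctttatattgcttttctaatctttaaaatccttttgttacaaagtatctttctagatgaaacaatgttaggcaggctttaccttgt
Kdm4a, intron: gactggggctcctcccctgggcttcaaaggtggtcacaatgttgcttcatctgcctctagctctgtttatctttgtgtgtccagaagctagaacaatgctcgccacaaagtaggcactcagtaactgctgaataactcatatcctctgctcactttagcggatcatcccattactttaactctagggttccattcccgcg

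Nearly all members stayed accessible throughout. A peak in both libraries of all 4 timepoints was found for 49 of 51 members (96.1%), against 72.8% of the 20673 genes with a peak in both libraries of some timepoint. Members also started from more peaks, with a median of 3.5 per gene at 0 h against 2.5 over those genes. Of the members, 43 had a region within 1000 bp of their start in the files, and in 38 of them such a region had a peak in all 8 libraries. The 5 whose start regions reached fewer than 8 libraries were *Bmi1*, *Scmh1*, *Ehmt2*, *Kdm2b* and *Kat2b*. Their best start regions had peaks in 7, 7, 3, 6 and 6 libraries. The *Ehmt2* start, for the G9a H3K9 methyltransferase, had summit values of 128 and 134 at 0 h, 126 in 1 of the 120 h libraries, and no peak in the other 5.

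The 2 exceptions among the members were *Ash1l* and *Hdac9*. *Ash1l*, which encodes an H3K36 methyltransferase, had 2 and 3 assigned peaks before RA, followed by 0 and 2, 0 and 3, and finally 2 and 0 at 120 h. The tallest of its 4 intronic regions (chr3:88992070-88992475) reached 77 and 71 at 0 h, and 33, 66 and 35 in the 3 later libraries with a peak. These assignments leave out the start of the longest GENCODE gene model. A region over that start (chr3:88949635-88951265) was assigned in the files to *Dap3* alone and had a peak in all 8 libraries, with values of 304 and 439 at 0 h, followed by 110 and 214, 103 and 141, and finally 196 and 171 at 120 h. The 0 h pattern of *Ash1l* thus covers its intronic regions and not its annotated start. *Hdac9*, a class IIa deacetylase, had 1 and 2 peaks at 0 h, 1 in each library at 18 and 48 h, and 0 in both at 120 h. Its main region in an intron (chr12:34495837-34496284) had values of 125 and 190 before RA, then 47 and 42, and 50 and 58 at 48 h. All 4 values at 18 and 48 h lay below both of those at 0 h.

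Members had more peaks before RA than after. The libraries held 209 and 199 member peaks before RA, followed by 109 and 131, 109 and 136, and finally 157 and 114 at 120 h. Both 0 h libraries lay above every later library, and the mean at 0 h (204 ± 7.07, SD, n = 2) exceeded that of the 6 later libraries by 78 (exact permutation test, two-sided, p = 0.0714, the smallest this design allows). As a share of all peaks of the library the order was the opposite. Member peaks were 0.289% and 0.288% of the peaks at 0 h, followed by 0.377% and 0.381%, 0.420% and 0.400%, and finally 0.397% and 0.463% at 120 h, a difference of -0.118 percentage points (exact permutation test, two-sided, p = 0.0714). With every library cut to its 24643 highest peaks, the 0 h libraries held 116 and 122 member peaks and the later ones 106 to 126. The difference was then 4.5 peaks, or 0.0183 percentage points (exact permutation test, two-sided, p = 0.5 for both). The higher number and the lower share at 0 h were thus not seen among the tallest peaks.

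**Figure D1:**
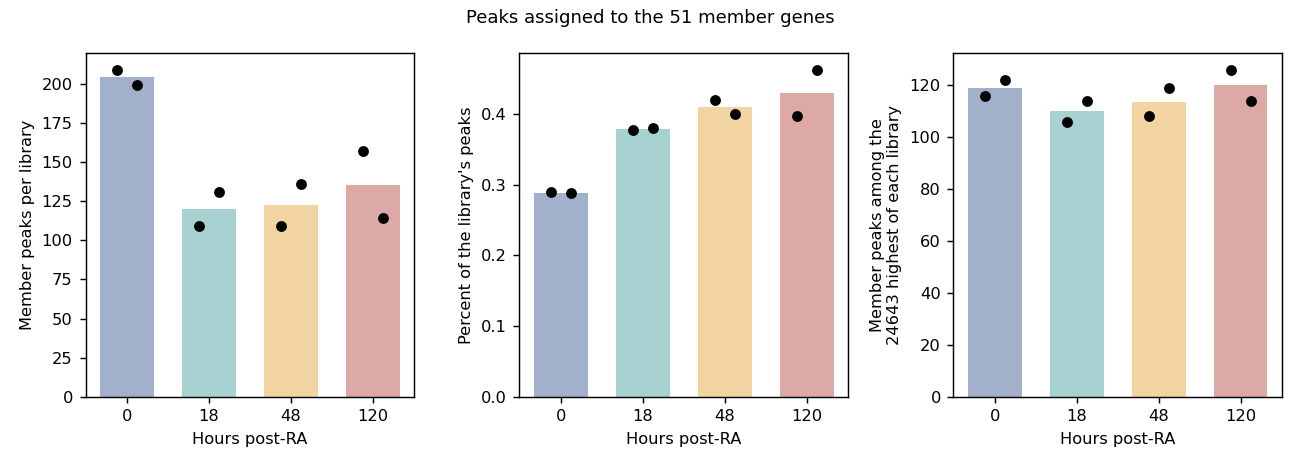
Peaks assigned to the 51 member genes by hours post-RA, as a number per library (left), as a percent of the library's peaks (middle) and as a number among the 24643 highest peaks of each library (right). Points are libraries and bars are means of 2. The 0 h libraries lie highest on the left (209 and 199), lowest in the middle (0.289% and 0.288%), and among the others on the right.

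Of the 51 members, 42 had a higher mean peak number at 0 h than later, 4 had the same and 5 a lower one. The share of all genes with a higher mean at 0 h was not counted, so the 42 cannot be set against it. In 18 members (35.3%) both 0 h libraries exceeded every later library, against 38.4% of all genes with a peak in both libraries of a timepoint, and in 0 members they lay below every later library, against 0.0726%. The median member had 1.167 more peaks at 0 h, and the median over all those genes was 1. The members' share was thus near the background.

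The 5 members with the largest differences were *Kdm2b*, *Hdac7*, *Crebbp*, *Phc2* and *Nsd1*. *Kdm2b*, whose product removes H3K36 methylation and brings a variant PRC1 to CpG islands, had 12 and 13 peaks before RA, followed by 3 and 6, 3 and 6, and finally 8 and 3 at 120 h. *Hdac7*, a class IIa deacetylase, had 12 and 10, 3 and 3, 3 and 5, and 7 and 1 in the same order. In both genes the 2 libraries of 120 h were far apart, and 120 h replicate 1 was the highest of the later libraries. *Crebbp*, an acetyltransferase of H3K27, had 6 and 10, 4 and 3, 3 and 5, and 3 and 4. *Phc2*, a PRC1 subunit, had 7 in both 0 h libraries and 1 to 4 later. *Nsd1*, which methylates H3K36, had 8 and 7 at 0 h and 2 to 4 later. *Cbx7*, with 9 and 7 at 0 h and 2 to 5 later, came next and is named outside the rule. In all 6 genes both 0 h libraries lay above every later library. Among the 24643 highest peaks, the difference of means was 2.33 peaks for *Hdac7*, 2.17 for *Cbx7* and 0.833 for *Kdm2b*, but -0.333 for *Phc2*, -0.167 for *Nsd1* and -0.667 for *Crebbp*.

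Among the 15 *Kdm2b* regions, 2 in introns kept a peak in all 8 libraries and 7 were called at 0 h only. The tallest (chr5:122975499-122976339, intron) had summit values of 466 and 351 at 0 h, followed by 92 and 99, 103 and 101, and finally 110 and no peak at 120 h. The tallest of 3 regions at the *Kdm2b* start had 104 and 118 at 0 h, 47 and 52 in replicate 2 of 18 and 48 h with no peak in replicate 1, and 80 and 55 at 120 h. Every value after RA in this pair of regions lay below both 0 h values. Of the 12 *Hdac7* regions, some also assigned to *Slc48a1* or *Vdr*, 0 had a peak in all 8 libraries and 6 were called at 0 h only, among them a pair downstream of the gene with 127 and 128 (chr15:97787876-97788270) and 110 and 124 (chr15:97790008-97790504) at 0 h and no later peak. Another downstream region (chr15:97784139-97784618) differed from these, with 103 and 81 before RA, no peak at 18 h, 52 and 54 at the next timepoint, and finally 108 and 123. At 120 h it was the single *Hdac7* peak of replicate 2.

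**Figure D2:**
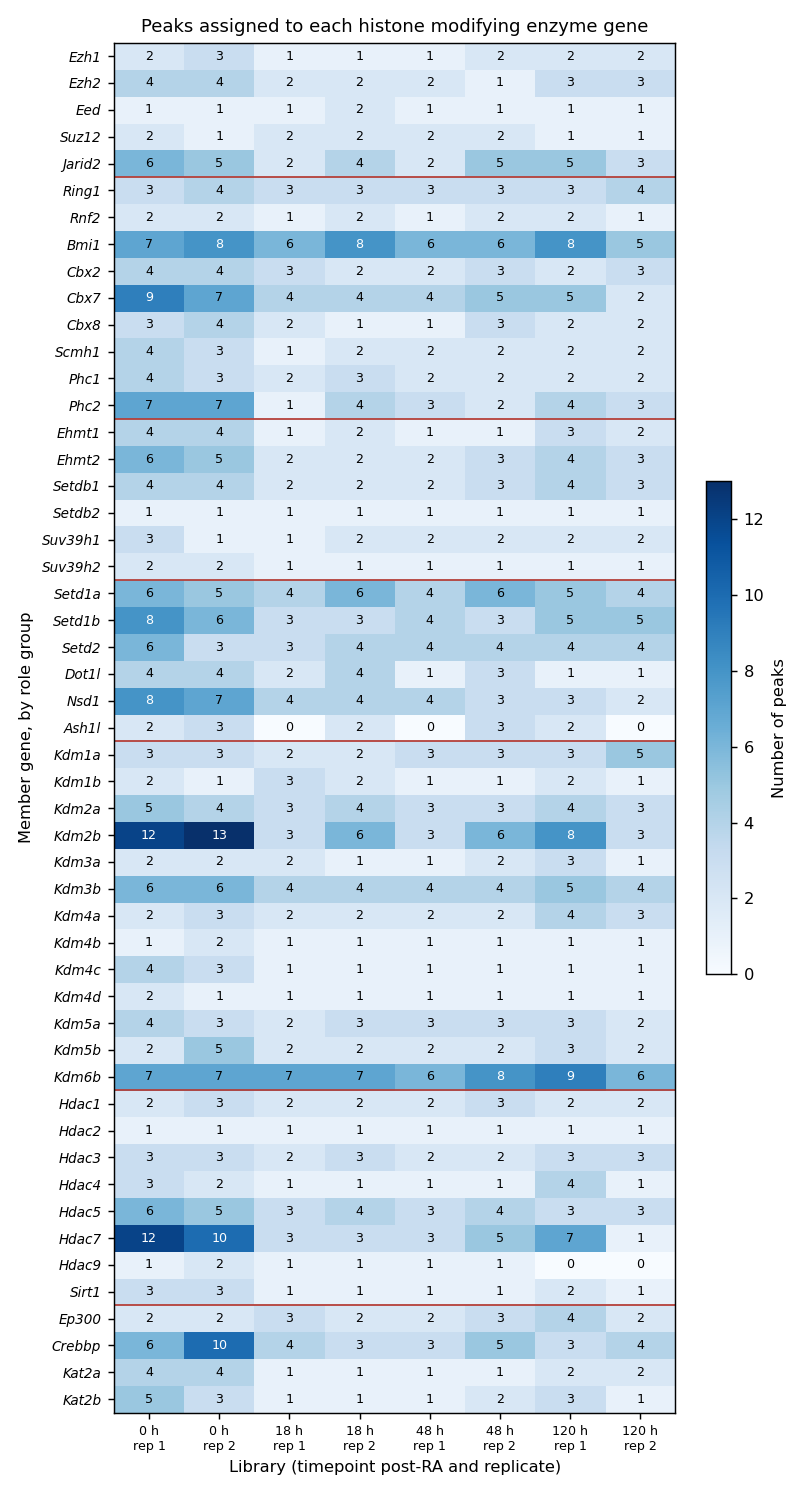
Number of peaks assigned to each member (rows, by role group from PRC2 at the top to acetyltransferases at the bottom, separated by lines) in each of the 8 libraries (columns). Darker cells hold more peaks; *Kdm2b* (12 and 13) and *Hdac7* (12 and 10) are darkest at 0 h, and *Hdac9* has 0 at 120 h.

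The members without a higher mean at 0 h were 9. *Ep300*, the partner of *Crebbp* among acetyltransferases, had 2 and 2 peaks before RA, followed by 3 and 2, 2 and 3, and finally 4 and 2 at 120 h. *Kdm6b*, an H3K27 demethylase, had 7 in both 0 h libraries and 6 to 9 later. The PRC2 core genes *Eed* and *Suz12* and the H3K4 demethylase *Kdm1b* also had lower means at 0 h, each by 0.167 peaks. *Setdb2* and *Hdac2* had 1 peak in every library. *Kdm1a*, an H3K4 demethylase, had 3 and 3 at 0 h and 2 to 5 later, and *Kdm4a*, which acts on H3K9 and H3K36, had 2 and 3 at 0 h and 2 to 4 later. In all 9 of these genes the 0 h values lay within the range of the 6 later libraries.

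Of the 171 member regions called in both 0 h libraries, 53.8% were also called at 18 h, 55.6% at 48 h and 57.3% at 120 h, where all 59063 such regions of the series kept 39.9%, 36.8% and 34.3%. Position and height differed between these lists. Member regions within 1000 bp of the member's start kept 80.0% at 18 h, 82.0% at 48 h and 90.0% at 120 h, and all gene start regions 69.0%, 70.3% and 71.8%. Those away from the member's own start kept 43.0%, 44.6% and 43.8%. Regions assigned to a gene but at no gene start kept 32.5%, 28.5% and 25.2%. These sets are unlike, because the member regions away from their own start can include starts of other genes. Of all such member regions 24.4% held a CpG island, against 7.85% of the regions at no gene start. Member regions of 0 h were also taller, with a median summit value of 164.5 against 91.5. In the tallest quartile of all 0 h regions, 79 of 85 member regions (92.9%) were called at 18 h against 94.5% of all regions. In the next quartile 12 of 39 (30.8%) were called, against 49.2%, in the one below 0 of 25 against 13.3%, and in the lowest 1 of 22 (4.55%) against 2.65%. The share kept by members was therefore below that of all regions of like height in 3 of the 4 quartiles, and no test was made of these shares.

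**Figure D3:**
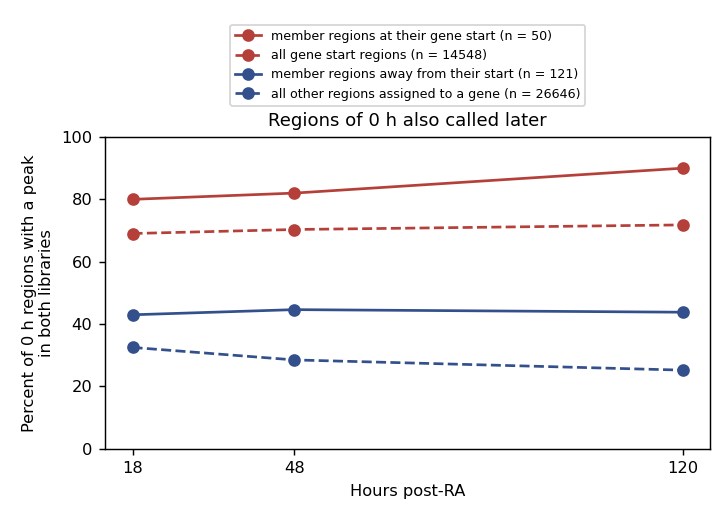
Percent of the regions called at 0 h that also had a peak in both libraries at 18, 48 and 120 h post-RA (x axis in hours). Red lines are member regions at the member's start (solid) and all gene start regions (dashed). Blue lines are member regions away from the member's own start (solid) and all regions assigned to a gene but at no gene start (dashed). The solid blue set can include starts of other genes. At their own starts members go from 80.0% to 90.0%, and away from those starts they stay between 43.0% and 44.6%.

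At 0 h only, 59 member regions were called, which is 34.5% of the member regions of 0 h, against 51.7% over all regions of 0 h. The gap was not the same at like height. From the tallest quartile of 0 h regions down, the members' shares were 2.35%, 56.4%, 72.0% and 77.3%. Those of all regions were 2.73%, 35.8%, 74.9% and 93.1%. By role group the number was 4 of 12 for PRC2, 11 of 34 for PRC1, 7 of 15 for H3K9 methyltransferases, 9 of 24 for the other methyltransferases, 11 of 45 for demethylases, 11 of 26 for deacetylases and 6 of 15 for acetyltransferases. Ranked by the lower of the 2 values at 0 h, the first 5 were those of *Kdm3a*, *Hdac5*, *Kdm2b*, *Dot1l* and *Ehmt2*. The *Kdm3a* intron region shown above, in the gene of an H3K9 demethylase, had values of 270 and 175 at 0 h, followed by 70 and no peak, no peak and 81, and finally 128 and no peak at 120 h. The *Kdm2b* intron region (chr5:122950368-122950958) had 146 and 168 at 0 h and 54 to 73 in the 3 later libraries with a peak. A region downstream of *Hdac5* (chr11:102189478-102190262), also assigned to *G6pc3* and *Lsm12*, had 148 and 171 at 0 h, and 59 and 58 in 1 library each of 18 and 48 h. A region 2918 bp upstream of *Dot1l* (chr10:80751959-80752485), the H3K79 methyltransferase, had 137 and 259 at 0 h, and 89 and 78 in 1 library each of 18 and 48 h. The region downstream of *Ehmt2* (chr17:34913958-34914805), also assigned to *Slc44a4*, had 135 and 145 at 0 h and no later peak. In 4 of these 5, single later libraries still had a peak, always below both 0 h values.

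At 120 h only, 4 of the 176 member regions called at any timepoint were called (2.27%), close to the 2.49% of all 61310 such regions. Of the 4, 3 also had a peak above 100 in 1 library of 0 h. The *Kdm4a* intron region had 141 and 106 at 120 h and 152 in 0 h replicate 2. A region in an intron of *Suv39h1* (chrX:8071800-8072137), the gene of an enzyme that trimethylates H3K9, had 127 and 78 at 120 h and 111 in 0 h replicate 1. The *Setd1b* intron region (chr5:123143417-123143906) had 142 and 60 at 120 h. It also had 110 in replicate 1 of 0 h and 58 in that of 48 h. A region 6222 bp upstream of *Ezh1* (chr11:101232494-101232893), which encodes a PRC2 methyltransferase, had 90 and 37 at 120 h and 47 in 48 h replicate 2. For the first 3, the 0 h value lay between or above the 120 h values. A single member region was called at 18 h only, in the first part of *Nsd1* (chr13:55209843-55210306), with 87 and 109 at 18 h and 104 in 0 h replicate 1; it was named after its values were seen. That is 0.568% of the 176 member regions, against 0.338% of all regions called at any timepoint.

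Heights could be compared in the 80 member regions with a peak in all 8 libraries, 39 of them at the start of a member and 41 elsewhere. The other 169 have no height in at least 1 library, so the counts below leave out the regions that were lost. Tests were limma fits over all 15536 such regions with 8 libraries, Benjamini-Hochberg adjustment and a threshold of 0.05. On the deposited scale, 75 member regions were lower and 0 higher at 18 h than at 0 h, against 92.3% of all regions lower and 0.296% higher, and the median member change of -1.20 on the log2 scale lay beside -1.23 for all. At 120 h against 0 h, 22 were lower and 1 higher, against 44.8% and 0.882%, with medians of -0.48 and -0.75. At 120 h against 48 h, 30 were higher and 0 lower, against 23.7% and 0.18%. Between 18 and 48 h limma called 0 members higher or lower (0.0% and 0.00644% of all regions). Without 18 h replicate 1 the 75 became 33 and without 0 h replicate 2 36. Without 48 h replicate 1 the 30 became 0, and without 48 h replicate 2 or 120 h replicate 1 they became 1. Without 120 h replicate 2 they became 50.

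Relative to the median region of the library, few members changed at 18 h and more at 120 h. At 18 h against 0 h, 1 of the 80 member regions was higher (1.25% of all regions) and 1 was lower (0.225% of all), with a median change of 0.06 on the log2 scale for members and 0.03 for all. Between 18 and 48 h limma called 0 member regions and 0 of all 15536 (0.0% in each direction), and 4 member regions were higher and 0 lower at an unadjusted p under 0.05, where 428 of all 15536 were higher and 489 lower. At 120 h against 48 h, 10 were higher and 3 lower, where 9.47% of all regions were higher and 7.45% lower, and the median change was 0.33 for members and 0.05 for all. At 120 h against 0 h, 26 member regions (32.5%) were higher and 5 (6.25%) lower, where 23.0% of all were higher and 15.8% lower. The median change was 0.42 for members and 0.14 for all. The member medians at 120 h against 0 h thus had opposite signs on the 2 scales, the library medians themselves being lower at 120 h. With quantile normalization of the heights, 8 member regions were higher and 6 lower at 120 h against 0 h, and 1 and 1 at 120 h against 48 h. Without 120 h replicate 2 the 26 became 8, and without 0 h replicate 1 they became 10. Without 48 h replicate 1, 48 h replicate 2 or 120 h replicate 2 the 10 became 0.

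Of the 26 member regions that rose in relative height by 120 h, 19 lay at starts. On the deposited scale, 0 of the 39 member starts were higher at 120 h than at 0 h and 3 were lower. Over all gene start regions 0.078% were higher and 31.8% lower on that scale. The median deposited changes were -0.31 for member starts and -0.57 for all gene starts. Of the 39 start regions of members, 19 (48.7%) were higher and 1 lower at 120 h than at 0 h in relative height, with a median change of 0.58. Over all 8971 gene start regions, 29.6% were higher and 8.42% lower, with a median of 0.32. Of the 41 other member regions 7 were higher (17.1%) and 4 lower (9.76%). Over all regions away from gene starts, 13.8% were higher and 25.8% lower. These sets are unlike, because the 41 can include starts of other genes. Member starts were tall, and tall gene starts rose more often. Only 1 of the 39 lay in the lowest quartile of all gene start regions by mean height. In quartile 2 by height, 6 of 14 members and 21.2% of all were higher, in quartile 3 5 of 12 and 34.2%, and in the highest 8 of 12 and 51.4%. Start regions of members also held a CpG island in 85.7% of cases, against 70.6% of all gene start regions. Whether these features account for the counts was not tested.

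**Figure D4:**
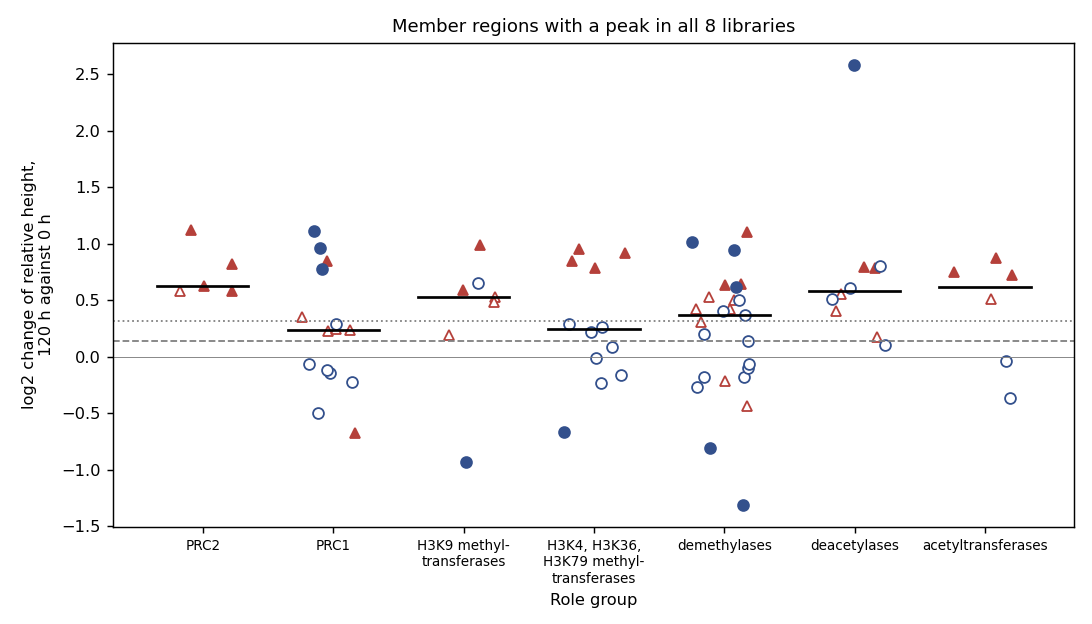
log2 change of relative height at 120 h against 0 h (y axis) for the 80 member regions with a peak in all 8 libraries, by role group (x axis). Triangles are member start regions and circles other regions, filled symbols passed the limma test, black bars are group medians, the dashed line is the median of all regions (0.14) and the dotted line that of all gene starts (0.32). Most filled triangles lie above both lines, and the highest point is the *Hdac4* region at 2.59.

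In PRC2, all 5 tested regions were start regions with a positive change at 120 h against 0 h, and 4 of the 5 passed the test as higher. Beside this and the role group counts below stand 23.0% of all regions higher and 15.8% lower in relative height. For all gene start regions the shares were 29.6% and 8.42%. The *Suz12* start (chr11:79992482-79993989) had summit values of 445 and 527 at 0 h, followed by 164 and 278, 209 and 222, and finally 692 and 467 at 120 h. At 120 h, replicate 1 lay above both 0 h values and replicate 2 between them. The relative change was 1.12 on the log2 scale at 120 h against 0 h (SE 0.208, limma adjusted p = 0.00182) and 0.90 against 48 h (adjusted p = 0.0217), and on the deposited scale the first was 0.23 (SE 0.372, adjusted p = 0.631). The region passed at 120 h against 0 h under all 15 alternatives. The smallest change in the group was at the *Ezh2* start (chr6:47594110-47595694), the gene of the main H3K27 methyltransferase, with 340 and 438 at 0 h, 135 and 219, 148 and 152, and 338 and 287 at 120 h, a relative change of 0.58 (adjusted p = 0.0503).

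In PRC1, 4 of 15 regions were higher and 1 lower at 120 h against 0 h. The largest rise at a start was at *Cbx8* (chr11:119040609-119041947), a region that also lies downstream of *Cbx2*; both genes encode chromodomain subunits that read H3K27 methylation. It had 523 and 671 at 0 h, followed by 183 and 282, 249 and 263, and finally 684 and 484 at 120 h, and a relative change of 0.85 (SE 0.202, adjusted p = 0.00667). With quantile normalization the change was 0.33 and did not pass (adjusted p = 0.228). On the deposited scale it was -0.04 (limma adjusted p = 0.936). A region 7064 bp upstream of *Ring1* (chr17:34031394-34032582), assigned also to *Rxrb*, *Slc39a7*, *Col11a2*, *H2-Ke6* and *Mir219-1*, had 272 and 351 at 0 h, 121 and 127, 151 and 158, and 423 and 309 at 120 h. Its relative change was 1.12 (SE 0.204, adjusted p = 0.00168), and its deposited change was 0.23 (limma adjusted p = 0.638). *Cbx7* showed both directions. Its start (chr15:79932195-79933060) had 225 and 266 at 0 h, followed by 78 and 104, 77 and 90, and finally 109 and 63 at 120 h, and was the only member start called lower (relative change -0.67, SE 0.192, adjusted p = 0.0155). It did not pass with quantile normalization or without 0 h replicate 1, 0 h replicate 2 or 120 h replicate 2 (adjusted p up to 0.0878). The region 6586 bp upstream (chr15:79939070-79939467, in an intron of a longer GENCODE model) had 117 and 178, 89 and 73, 54 and 67, and 172 and 134. It rose by 0.83 at 120 h against 48 h (adjusted p = 0.0364) and by 0.96 against 0 h (adjusted p = 0.00834).

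Among the H3K9 methyltransferases, 2 of 7 regions were higher and 1 lower. The *Ehmt1* start (chr2:24918963-24920052), shared with *Arrdc1*, had 211 and 333 at 0 h, followed by 65 and 156, 90 and 120, and finally 337 and 240 at 120 h. The replicates were furthest apart, as a ratio, at 18 h. Its relative change was 0.99 at 120 h against 0 h (SE 0.272, adjusted p = 0.0129) and 0.95 against 48 h (adjusted p = 0.0355). On the deposited scale the first of these was 0.10 (limma adjusted p = 0.839). The lowest start change was at *Setdb1* (chr3:95356644-95357449), with 234 and 302 at 0 h and 179 and 150 at 120 h, a relative change of 0.19 (adjusted p = 0.473). A region downstream of *Setdb1* (chr3:95314655-95316061), also assigned to *Cers2*, *Anxa9* and 6330562C20Rik, fell, with 205 and 243, 80 and 91, 58 and 78, and 74 and 54 (relative change -0.93, SE 0.198, adjusted p = 0.00396), under all 15 alternatives.

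For the H3K4, H3K36 and H3K79 methyltransferases, 4 of 12 regions were higher and 1 lower. The *Dot1l* start (chr10:80754846-80755596) had 384 and 623 at 0 h, 191 and 236, 174 and 276, and 581 and 448 at 120 h. Its deposited change at 120 h against 0 h was 0.06 (limma adjusted p = 0.907). Its relative change was 0.95 (SE 0.227, adjusted p = 0.00688), which did not pass without 0 h replicate 1, without 120 h replicate 2, with quantile normalization or after removal of the GC trend (adjusted p up to 0.139). The *Setd2* start, for the enzyme that trimethylates H3K36, had the smallest start change of the group and passed (0.78, adjusted p = 0.0142), but not under 5 of 15 alternatives, among them quantile normalization, the mean signal and removal of the GC trend (change down to 0.26, adjusted p up to 0.298). A region downstream of *Setd1b* (chr5:123171198-123172278), assigned also to *Hpd*, had 238 and 455 at 0 h, followed by 102 and 141, 113 and 120, and finally 136 and 92 at 120 h. Its change of -0.67 (SE 0.232, adjusted p = 0.0363) passed under 8 of 15 alternatives and not without 0 h replicate 2 or either 120 h replicate (adjusted p up to 0.332).

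The demethylases held the largest number of regions, 25 in all 8 libraries, of which 6 were higher and 2 lower. *Kdm2a*, which removes H3K36 methylation and binds unmethylated CpG, showed a rise in relative height at its start and a fall within the gene. On the deposited scale the start changed by 0.21 at 120 h against 0 h and did not pass (limma adjusted p = 0.658). The start (chr19:4396818-4398648) had 274 and 426 at 0 h, followed by 149 and 245, 153 and 213, and finally 435 and 361 at 120 h (relative change 1.10, SE 0.230, adjusted p = 0.00346). The intron region (chr19:4333624-4334420) had 388 and 439, 154 and 178, 132 and 166, and 119 and 68, so that 120 h was its lowest timepoint. It was the largest fall among the 80 regions, -1.31 relative (SE 0.195, adjusted p = 0.000549) and -2.20 deposited (SE 0.372, adjusted p = 1.17e-07) at 120 h against 0 h, and -1.22 relative against 48 h (adjusted p = 0.00996, and 0.112 without 48 h replicate 2). Both relative *Kdm2a* changes at 120 h against 0 h passed under all 15 alternatives.

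*Kdm6b* regions moved in different directions within 10 kb. A region 2315 bp inside the gene (chr11:69410862-69412004, also assigned to *Dnahc2*) had 152 and 201 at 0 h, 90 and 115, 117 and 120, and 212 and 171 at 120 h, a relative change of 1.01 (SE 0.205, adjusted p = 0.00301). One 3957 bp upstream (chr11:69417471-69418199) had 236 and 414, 120 and 157, 115 and 153, and 362 and 292, and rose by 0.79 against 48 h (adjusted p = 0.036). The region 4907 bp inside the gene (chr11:69408547-69410052) fell instead, with 487 and 425, 179 and 226, 146 and 196, and 183 and 108. Its relative change was -0.80 against 0 h (SE 0.213, adjusted p = 0.0111) and -0.77 against 48 h (adjusted p = 0.033). With the mean signal over the peak the first of these was -0.13 and did not pass (adjusted p = 0.589). At the starts of *Kdm5a*, an H3K4 trimethyl demethylase gene, and *Kdm3b*, heights rose by 0.79 (adjusted p = 0.0252) and 0.91 (adjusted p = 0.0271) at 120 h against 48 h. The lowest start change in the group at 120 h against 0 h was -0.44 at *Kdm4a* (adjusted p = 0.112), whose start was the tallest of those named, with 1002 and 1048 at 0 h and 528 and 316 at 120 h.

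Deacetylase regions were higher in 3 of 10 cases and lower in 0. The region 1671 bp upstream of the *Hdac4* start of the files (chr1:92149834-92150286), for a class IIa deacetylase, had 62 and 36 at 0 h, followed by 63 and 52, 59 and 60, and finally 225 and 104 at 120 h. It had the lowest mean of the 80 member regions at 0 h and lay above every earlier value in both 120 h libraries. It was the only member region to pass the test as higher on both scales at 120 h against 0 h. Its change was 2.59 relative (SE 0.317, adjusted p = 0.000156) and 1.70 deposited (SE 0.372, adjusted p = 4.59e-05). The relative rise passed under all 14 alternatives. At 18 h against 0 h it passed on the relative scale (1.54, SE 0.317, adjusted p = 0.0274) and not on the deposited one (0.28, adjusted p = 0.462), with 0 h and 18 h values that overlap. The relative call was lost without 0 h replicate 2 or 18 h replicate 1, with quantile normalization and with only the libraries compared (adjusted p up to 0.371). A *Hdac5* intron region (chr11:102214676-102215117) had 127 and 95, 108 and 86, 118 and 151, and 128 and 64. Its relative change was 1.07 at 18 h against 0 h (adjusted p = 0.0791) and -1.06 at 120 h against 48 h (adjusted p = 0.0273). The second of these did not pass with quantile normalization. On the deposited scale it was -0.56 and did not pass either (limma adjusted p = 0.256). The *Hdac5* start had 196 and 282 at 0 h and 245 and 197 at 120 h. It rose by 0.79 in relative height at 120 h against 0 h (SE 0.224, adjusted p = 0.0148), but did not pass with quantile normalization. The deposited change was -0.10 (limma adjusted p = 0.845). The lowest relative start change was 0.17 at *Hdac1* (adjusted p = 0.534), a class I deacetylase.

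Acetyltransferase regions were higher in 3 of 6 cases and lower in 0 at 120 h against 0 h. The *Ep300* start (chr15:81584873-81586572) had 259 and 280 at 0 h, followed by 108 and 204, 122 and 145, and finally 291 and 244 at 120 h. Its relative change was 0.88 (SE 0.233, adjusted p = 0.0112), and its deposited change was -0.02 (limma adjusted p = 0.976). The lowest start change of the group was 0.51 at *Crebbp* (chr16:4212887-4213534), which did not pass (adjusted p = 0.0722), with 124 and 195 at 0 h, followed by 70 and 91, 76 and 110, and finally 138 and 104. The region 9062 bp upstream of *Ep300* (chr15:81576956-81577445) followed another course, with 261 and 255 at 0 h, followed by 46 and 53, 43 and 46, and finally 148 and 79 at 120 h. It was the only member region called lower at 18 h in relative height (-1.13, SE 0.208, adjusted p = 0.0139), and it rose by 0.78 at 120 h against 48 h (adjusted p = 0.0297). The fall at 18 h did not pass without 0 h replicate 1 or either 18 h replicate (adjusted p up to 0.118). The *Kdm2b* intron region (chr5:122938951-122939418) had a like course, with 250 and 241, 48 and 70, 52 and 63, and 160 and 86. Its change at 18 h was -0.82 relative (SE 0.208, adjusted p = 0.0748), which did not pass, and -2.08 deposited (SE 0.372, adjusted p = 3.07e-06). At 120 h against 0 h, the rises at the *Ehmt1*, *Setd2* and *Hdac5* starts and the fall 4907 bp inside *Kdm6b* did not pass without 0 h replicate 1 or without 120 h replicate 2, and that at the *Ep300* start without 0 h replicate 2 or 120 h replicate 2. The next largest decreases at 18 h, none past the threshold in relative height, were -0.67 at the *Kdm4d* start, -0.53 upstream of *Kdm5b* and -0.37 downstream of *Kdm4a*. The next largest increases, also not past it, were 0.62 upstream of *Ehmt2*, 0.57 at the *Hdac2* start and 0.52 inside *Nsd1*.

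**Figure D5:**
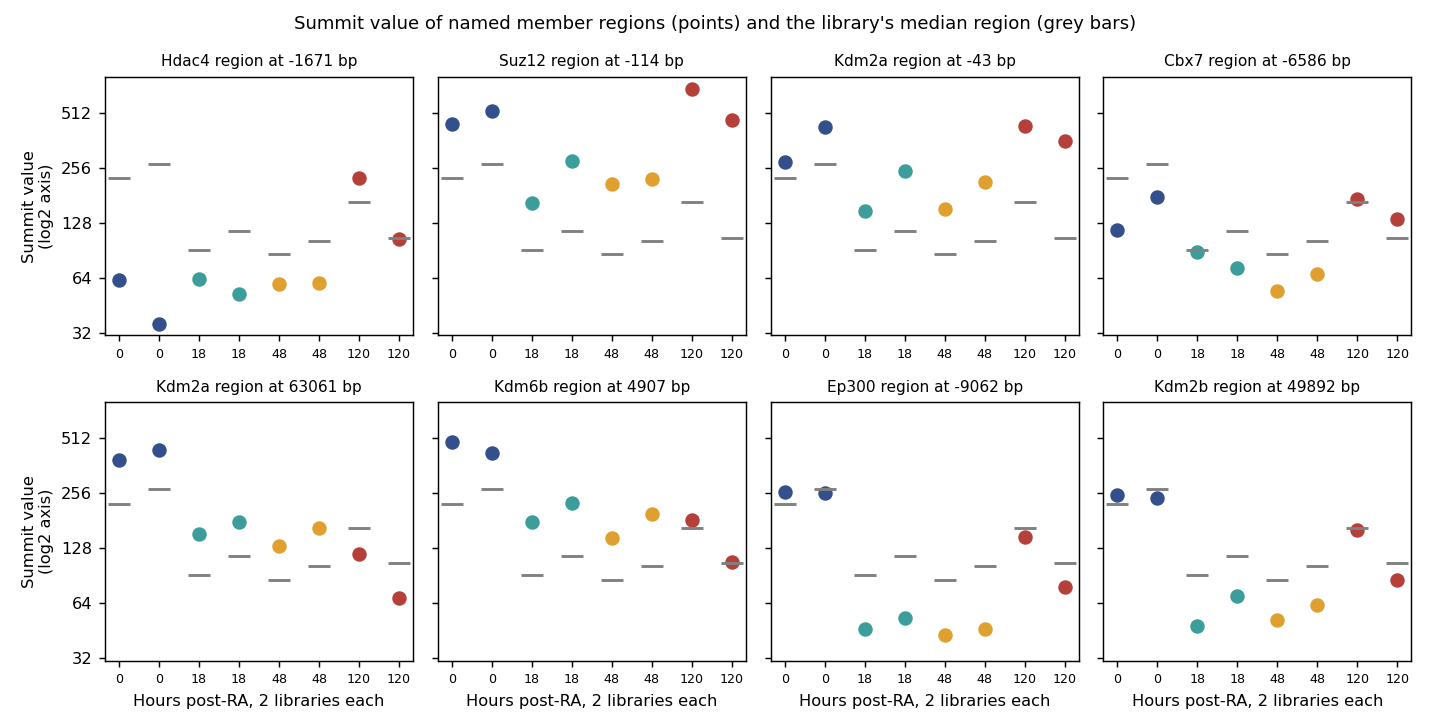
Summit values (log2 axis) of 8 named member regions in the 8 libraries (x axis in hours post-RA, 2 libraries each), with grey bars for the median of the 15536 regions in each library. In the *Hdac4* region the 120 h points lie above the median in replicate 1 and at it in replicate 2, after lying below it in all 6 earlier libraries, in the *Kdm2a* region at 63061 bp they fall to 119 and 68 at 120 h, and in the *Ep300* and *Kdm2b* regions they lie on either side of the median at 0 h and below it in all 6 later libraries.

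Few motifs were frequent in the 200 bp windows. CCAAT was found, on either strand, in 28.5% of the 249 member regions and 25.4% of all 87144, and at starts in 28.6% of members and 28.1% of all gene starts. The GC box GGGGCGGGG was in 17.9% of the 56 member start regions and 13.7% of all gene starts, and the ETS motif CCGGAAG in 7.14% and 11.2%. The E box CACGTG was in 8 of the 56 member starts (14.3%) and 7.75% of all, AAGATGGCG (YY1) in 3 (5.36%) and 1.69%, and GGCGGGAA (E2F) in 3 (5.36%) and 2.41%. TGACGTCA (CRE) was in 1 (1.79%) and 2.39%. Away from the member's own start, the NRF1 motif GCGCATGCG was in 6 of 193 member regions (3.11%), the *Cbx7* window above among them. It was in 0.848% of regions assigned to a gene but at no gene start, and in 1.89% of gene start regions. The sets are unlike, because the 193 can include starts of other genes. TGANTCA (AP-1) was in 8 of these 193 (4.15%) and 5.67% of the regions at no gene start. A CTCF consensus was in 8 (4.15%) and 4.20%. Direct repeats bound by RA receptors, searched by name, were in 1 member region for DR2 and 3 for DR5, or 0.402% and 1.20% against 0.390% and 0.351% of all regions. ATGCAAAT (POU) was in 1 member region and the BANP and ZBTB33 palindrome in 0. Member numbers were small for all but CCAAT.

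Other histone modifying enzyme genes were counted for context. Of 57 further symbols found in the gene assignments, 54 had a peak in both libraries of all 4 timepoints, and *Whsc1*, *Prmt5* and *Pcgf1* at 0 h only. Over the 20673 genes with a peak in both libraries of a timepoint, 72.8% had one at all 4. A higher mean peak number at 0 h was found for 45 of the 57, an equal one for 5 and a lower one for 7, with no count over all genes to set beside these.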

How the data were processed

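ATAC-seq libraries of sorted PIWIL2-eGFP germ cells were analysed from the peak table. Per the labels and the study's methods, the authors aligned read pairs to mm10 with BWA 0.7.12, removed duplicates, reduced every library to one number of tags, called peaks per library with MACS2 2.1.0 without a control and assigned genes within 10 kb. The deposited signal values are tag coverage at the summit and its mean over the peak. The depth behind a single peak is unknown, so no counting interval was computed. The same table gives the number of CpG islands each peak overlaps. Browser track files, which repeat these peaks, and a list of track addresses were not used here.

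Overlapping peaks (1 bp or more) were joined into regions, and a region was called at a timepoint when 2 of 2 libraries held a peak. Rows were mapped to samples by their sample names. A region's height was the log2 of its highest summit value in a library, as deposited or minus the library median over regions with a peak in all 8 libraries. Heights were fitted with limma 3.58.1 in R 4.3.3 (4 groups, no covariate), adjusted over all 15536 regions, after the script was tested on simulated data. On the deposited scale limma gave all regions one variance, so their SEs are equal. Peak numbers were compared by exact permutation, two-sided with the smaller tail doubled. Python 3.11.15, numpy 2.4.6, pandas 2.3.3 and pysam 0.24.0 were used, with GENCODE vM21 features and the GRCm38.p6 sequence.

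Named were members missing from a timepoint, the 5 largest and all zero or negative differences in peak number, the extreme start region of each role group, the 5 largest height changes each way at 18 and 120 h against 0 h, regions past the threshold between later timepoints (up to 10 by size), and the first 5 regions at 0 h only, ranked by the lower of the 2 values, with all at 120 h only. The members and lists were chosen with earlier results of these data known. Alternatives were quantile normalization, the mean signal, a replicate block, only the libraries compared, an intensity trend, a summit value of at least 50, windows of 100 bp on each side of summits, equal numbers of peaks, assignment limited to the gene body and 1000 bp around the start, a peak in either replicate, and each library left out. Removal of the GC trend was added after the data were seen. Each p covers the spread between mice of 1 experiment.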

Additional observations from a re-analysis of the deposited data

How the results depend on the processing

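After every library was cut to the same number of peaks by height, the difference in the percent of peaks assigned to members reversed to 0.0183 percentage points. Members at all 4 timepoints numbered 44 to 50 under the alternatives. For relative heights at 18 h against 0 h, regions higher numbered 0 with quantile normalization, only the libraries compared or summits of at least 50, and 2 with the mean signal, an intensity trend, a replicate block or the GC trend removed. Regions lower numbered 0 with summits of at least 50 and 2 with the GC trend removed. For 120 h against 48 h, regions higher and lower numbered 1 and 1 with quantile normalization and 3 and 5 with summits of at least 50, 18 were higher with an intensity trend, and 6 were lower with the GC trend removed. For 120 h against 0 h, 8 were higher with quantile normalization and 17 with summits of at least 50. On the deposited scale, 11 were higher at 120 h against 48 h with only the libraries compared, and 0 at 120 h against 0 h with summits of at least 50. The causes were not tested.

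With single libraries left out, relative counts higher and lower ranged from 0 to 2 and 0 to 1 at 18 h, from 0 to 11 and 0 to 3 at 120 h against 48 h, and from 8 to 30 and 2 to 5 at 120 h against 0 h. Deposited counts lower ranged from 33 to 78 at 18 h and from 6 to 32 at 120 h against 0 h (6 without 120 h replicate 2, 7 without 0 h replicate 2), and counts higher from 0 to 50 at 120 h against 48 h. An arm left with 1 library was assumed to vary like the others. The *Hdac1* start reversed to -0.16 with quantile normalization, and the *Setdb1* start ranged from -0.0035 (without 120 h replicate 2) to 0.39 with single libraries left out. Neither had passed. Merged windows were used for counts, not for single regions.

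Replicate numbers did not pair the libraries, which came from separate mice: correlations of same-numbered deviations ranged from -0.224 to 0.248. The replicate block gave 29 regions higher at 120 h against 0 h and 13 at 120 h against 48 h in relative height, and changed no other count by over 1.5 times except the 2 at 18 h. With 2 libraries against 6, no exact p could fall below 0.0714.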
